A study of Mus musculus with 20 samples.

Results

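The results concern 8 mouse genes whose proteins destroy or silence messenger RNA in T cells: Zc3h12a and Zc3h12d (Regnase-1 and Regnase-4), N4bp1, Rc3h1 and Rc3h2 (Roquin-1 and Roquin-2), and Zfp36, Zfp36l1 and Zfp36l2 (the Zfp36 family). The members were named by symbol and not by their values, and all 8 were found among the 39179 gene IDs counted in each of 20 RNA-seq libraries of CD4 T cells. All 8 had enough counts to be tested in both experiments of the series, which tested 14225 and 14926 genes.

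The study asked how loss of the IL-6 receptor gene Il6ra bears on Th17 cells, the CD4 T cells that make IL-17. All mice were C57BL/6 and all cells carried an IL-17F/Thy1.1 reporter, which puts Thy1.1 on cells that express Il17f. In the transfer experiment, wild-type (CD45.1) and Il6ra-/- (CD45.2) CD4 T cells were cultured for 6 days with irradiated antigen-presenting cells and antibodies to CD3, IFN-g and IL-4. Hyper-IL-6 was added at 20 ng/ml, with TGF-b at 2.5 ng/ml. In hyper-IL-6 the cytokine is fused to the soluble form of its receptor, so it also acts on cells that lack Il6ra. Sorted Thy1.1+ cells gave the libraries from before transfer (2 per genotype). The other cells, 200000 of each genotype, went together into Rag1-/- mice, hosts without lymphocytes of the T and B lineages. CD4+ TCRb+ cells were sorted by CD45 allele from the colon 4 weeks later (3 libraries per genotype, each pooled from several hosts). Libraries numbered 0 came from experiment 1 and those numbered 1 and 2 from experiment 2. In the culture experiment (2 libraries per group), wild-type and Il6ra-/- cells were taken as naive cells or after 6 days with antigen-presenting cells and TGF-b (2.5 ng/ml), to which either IL-6 (20 ng/ml, wild type) or hyper-IL-6 (63 ng/ml, both genotypes) was added. All of these libraries are labelled as stimulated for 4 h before the sort with PMA and ionomycin, drugs that mimic antigen receptor signalling. The labels used here give no ages of the mice and do not say which part of Il6ra was deleted.

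Total gene counts ranged from 12718633 to 23745060 per library in the transfer experiment and from 20160774 to 46848016 in the culture experiment. A pair of transfer libraries stood apart from the others. Wild-type library 1 from before transfer had 3.19% of its counts in ribosomal protein genes, and wild-type colon library 2 had 4.28% in mitochondrial genes. Il6ra mRNA did not separate the genotypes before transfer (80.6 and 123 CPM in Il6ra-/- cells against 84.2 and 72.8 in wild type), and the genotypes overlapped in the colon (2.53 to 4.85 against 4.32 to 10.7 CPM), so it gave no check of the transfer labels. In the culture experiment Il6ra stood lower in both Il6ra-/- libraries, at 199 and 213 against 270.2 and 421.5 CPM in naive cells and at 32.3 and 31.8 against 39.8 and 39.2 CPM after hyper-IL-6, although neither difference passed edgeR's quasi-likelihood test (adjusted p = 0.263 and 1). The labels do not say that libraries of a group came from separate animals, so a p-value reflects how these libraries spread, and that spread may be technical. In bulk RNA, fewer cells of a type and less RNA per cell cannot be told apart.

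Levels are given as CPM, the gene's count as a share of the library's total on a common scale, after edgeR's trimmed mean of M values (TMM) scaling. A gene is said to rise or fall where edgeR's quasi-likelihood test gave an adjusted p under 0.05 (Benjamini-Hochberg over all genes tested). Each experiment was scaled on its own, so differences are drawn within it and levels from both are only set side by side. Fold changes are log2 values with their standard error (SE).

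Regnase-1 is an endonuclease that cuts stem-loops in mRNAs of inflammatory cytokines and T-cell activation genes, and Regnase-4 is a relative of it. N4BP1 carries the same kind of nuclease domain. The Roquins are RING-finger proteins that bind stem-loops in mRNAs such as Icos and Tnfrsf4 (OX40) and bring in the CCR4-NOT complex, which shortens the poly(A) tail. Zfp36 proteins (tristetraprolin and its relatives) bind AU-rich elements in mRNAs such as Tnf and Csf2 and also act through CCR4-NOT. In T cells, antigen receptor signalling leads the MALT1 protease to cleave Regnase-1, Roquins and N4BP1, and the p38-MK2 kinases inactivate Zfp36 proteins by phosphorylation. These are events on protein, which RNA counts do not show. Zfp36 is itself an immediate-early gene, switched on within minutes of many stimuli.

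The sequence before the annotated start was read for the members because their responses differed so much. RefSeq's promoter table (GRCm38.p6) held 7 of the 8 members, and Zfp36l2 is not given here. Motifs were chosen after the sequences had been seen, and were searched on both strands in the 250 bases before the start. Zfp36, the member with the widest range of levels in the culture experiment, had an EGR motif (GCGNGGGCG), an SRF CArG box and a STAT motif (TTCNNNGAA). These are shown as short pieces on the minus strand, with the motif in capitals: the EGR motif at bases -105 to -97 from the start (chr7:28379315-28379343), the CArG box at -58 to -49 (chr7:28379267-28379296) and the STAT motif at -17 to -9 (chr7:28379229-28379255). The whole window lies inside an exon that GENCODE M21 annotates to Zfp36.
Zfp36 EGR: gagctacgccGCGGGGGCGcgtcccggaa
Zfp36 CArG: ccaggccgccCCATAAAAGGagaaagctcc
Zfp36 STAT: acagcctgacTTCTGCGAAccgacagt

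The same window of Zc3h12d, the member that moved against the others, is shown beside that of Zfp36l1, a member of the Zfp36 family. The Zc3h12d window (chr10:7832220-7832469, plus strand, 57.2% G and C) held none of the motifs searched. The Zfp36l1 window (chr12:80113014-80113263, minus strand, 48.4% G and C) held an AP-1 motif (TGANTCA), in capitals, at bases -129 to -123.
Zc3h12d: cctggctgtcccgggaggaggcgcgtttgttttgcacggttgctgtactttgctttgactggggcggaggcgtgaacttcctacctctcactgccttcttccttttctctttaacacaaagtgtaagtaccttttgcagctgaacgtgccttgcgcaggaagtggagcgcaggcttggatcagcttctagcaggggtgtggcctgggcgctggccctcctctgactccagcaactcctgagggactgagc
Zfp36l1: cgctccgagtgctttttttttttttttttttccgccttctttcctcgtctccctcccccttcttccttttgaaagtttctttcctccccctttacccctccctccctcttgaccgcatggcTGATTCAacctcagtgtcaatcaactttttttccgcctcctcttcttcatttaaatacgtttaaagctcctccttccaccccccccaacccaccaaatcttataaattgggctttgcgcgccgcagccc

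Among the other members, Rc3h1 held an AP-1 motif and 3 matches to a KLF motif (CCACGCCC), and Zc3h12a and Zfp36 each held a KLF motif. No motif searched was found for Rc3h2 or N4bp1, and none of the 7 windows held an NF-kB motif or the FOXO motif TGTTTAC. Of 27025 mouse promoters of that length, 6.87% held AP-1, 4.65% EGR, 7.18% STAT, 1.4% the CArG box, 4.84% KLF, 3.09% FOXO and 0.13% NF-kB. A match is a description of the letters and not a binding site.

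In wild-type cells, the move from the Th17 culture to the colon went with more mRNA of most of these genes and less of one. Of the 8 members, 6 rose (17.1% of the 14225 genes tested rose) and 1 fell (15.8% of genes fell). Together that is 7 members called against 32.9% of all genes. The median member difference was 0.86 log2 units, beside -0.02 over all genes. Zc3h12a did not pass the test. In Il6ra-/- cells 2 members rose (13.8% of genes rose) and 1 fell (13.2% of genes fell), so 3 of 8 were called against 27.0% of genes, with a median of 0.74. With the replicate number as a block, 6 members passed in wild type (28.1% of genes) and 4 in Il6ra-/- (24.1% of genes). With DESeq2 6 passed in Il6ra-/- (31.7% of genes). In wild type DESeq2 added Zc3h12a (adjusted p = 0.04075) and removed no call (38.5% of genes passed). Counts of calls are not a comparison of the genotypes: the difference between the 2 stage effects passed the test for 0 of 8 members with edgeR's quasi-likelihood test and with DESeq2, and for 0 at an unadjusted p under 0.05 (0.0% of all genes passed by edgeR and 0.0844% by DESeq2). That difference ranged from -0.67 for Zfp36l2 to 0.28 for Zc3h12a.

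**Figure D1:**
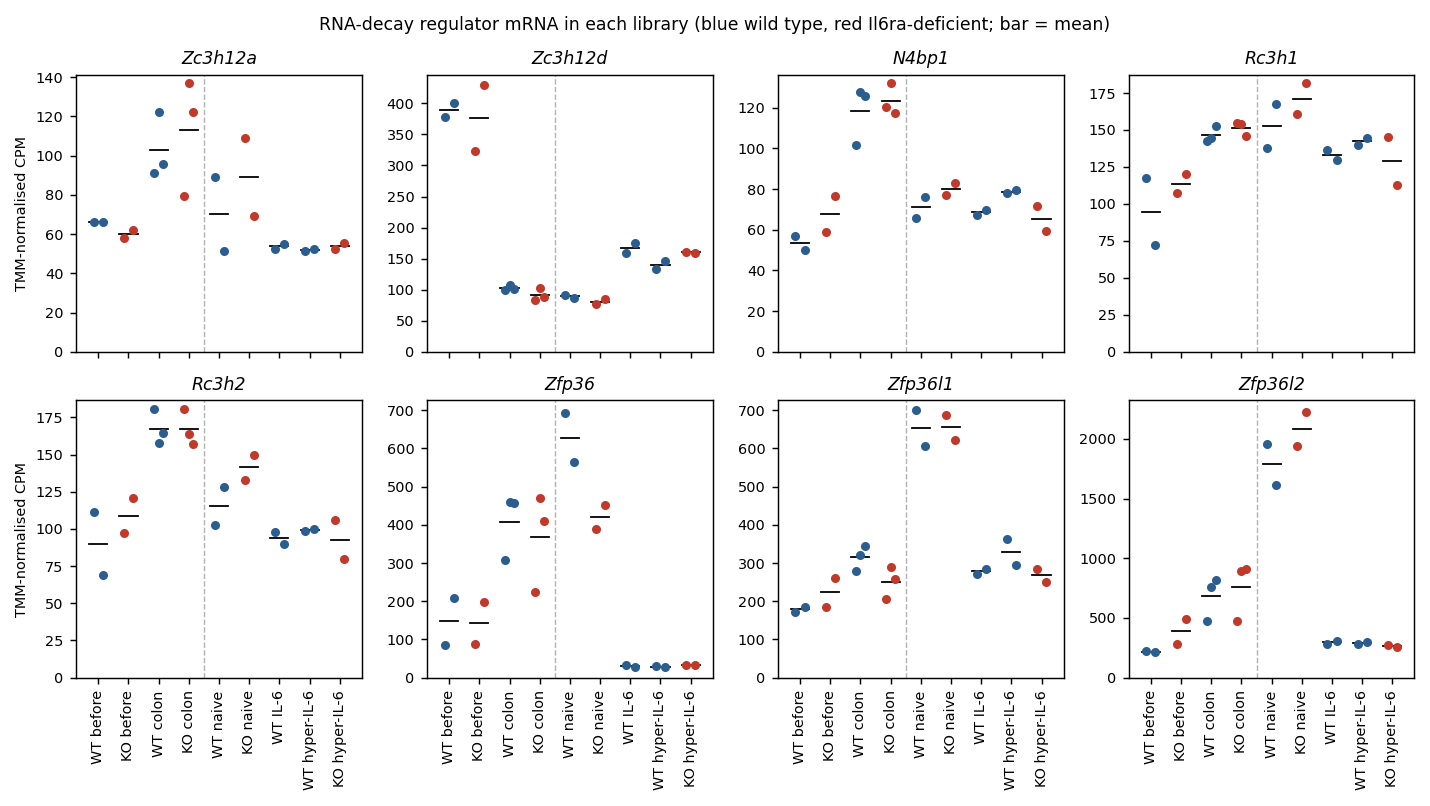
Level of each of the 8 members (y axis, TMM CPM) in every library of the 9 groups (x axis), with a point per library, a bar for the group mean, blue for wild type (WT) and red for Il6ra-/- (KO). Zc3h12d was highest before transfer (323 to 429 CPM) and near 100 CPM in the colon, and Zfp36l2 was highest in naive cells (1618 to 2223 CPM).

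Zc3h12d, on chr10:7832470-7870396 (plus strand, GRCm38), was the member that fell. It stood at 378 and 400.3 CPM in wild-type libraries 0 and 1 before transfer and at 99.1, 107 and 101 CPM in colon libraries 0, 1 and 2. Il6ra-/- cells held 323 and 429 CPM before transfer and 83.7, 103 and 88.3 CPM in the colon. Every colon library was below every library from before transfer, in both genotypes. By edgeR's quasi-likelihood test with Benjamini-Hochberg adjustment the fall was 3.79-fold in wild type (log2 difference -1.92, SE 0.19, adjusted p = 5.025e-05) and 4.11-fold in Il6ra-/- (-2.04, SE 0.19, adjusted p = 3.576e-05). It was as large within each experiment taken alone: -1.93 in experiment 1 and -1.94 in experiment 2 for wild type, and -1.95 and -2.17 for Il6ra-/-. The call held under every alternative tried.

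Zc3h12a, on chr4:125118423-125127840 (minus strand), encodes the best-studied Regnase, and it moved the other way. In wild type it stood at 66.3 and 66.1 CPM before transfer and at 91.1, 122 and 95.7 CPM in the colon. The Il6ra-/- libraries held 57.9 and 62.1 CPM before transfer and 79.7, 137 and 122 CPM in the colon. The stages did not overlap in either genotype. The rise passed edgeR's quasi-likelihood test in Il6ra-/- cells (0.91, SE 0.25, adjusted p = 0.01855), while in wild type the difference of 0.64 (SE 0.24) had an adjusted p of 0.06561. The Il6ra-/- call was lost when any one of 4 libraries was left out: adjusted p was 0.1097 without library 0 from before transfer, 0.06777 without library 1 from before transfer, 0.0738 without colon library 1 and 0.06409 without colon library 2. Over all alternatives it ranged from 0.003333 to 0.1097. In wild type it ranged from 0.04075 to 0.1982.

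The Regnase pair therefore changed places. Per kilobase of exon, Zc3h12d mRNA was 3.94 to 4.87 times as high as Zc3h12a mRNA in the 4 libraries from before transfer, and 0.508 to 0.767 times in the 6 colon libraries. Each library of the first kind was above each of the second. The plot of paralog shares shows this ratio beside the make-up of the Zfp36 family.

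N4bp1, on chr8:86808160-86885258 (minus strand), rose in both genotypes. It stood at 57.1 and 50.2 CPM in wild type before transfer and at 102, 128 and 126 CPM in the colon. Il6ra-/- libraries held 58.8 and 76.6 CPM before transfer and 120.1, 132 and 118 CPM in the colon. Again no colon library overlapped a library from before transfer. The rise was 2.21-fold in wild type (1.14, SE 0.20, adjusted p = 0.001841 by edgeR's quasi-likelihood test), a call that held under every alternative. The Il6ra-/- rise was 1.82-fold (0.86, SE 0.20, adjusted p = 0.008496). That call was lost without Il6ra-/- library 0 from before transfer (0.66, adjusted p = 0.07892, the highest of its alternatives, against a lowest of 0.000336).

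The Roquin genes, Rc3h1 on chr1:160906418-160974978 (plus strand) and Rc3h2 on chr2:37370069-37422903 (minus strand), rose less. Rc3h1 stood at 118 and 72.2 CPM in wild type before transfer and at 143, 144 and 153 CPM in the colon. Rc3h2 stood at 111 and 68.9 CPM before transfer and at 181, 158 and 164 CPM in the colon. The stages did not overlap, and wild-type library 1 from before transfer, the one with the high ribosomal share, held the lowest level of each gene. The rise was 0.63 (SE 0.21, adjusted p = 0.04468) for Rc3h1 and 0.89 (SE 0.23, adjusted p = 0.01308) for Rc3h2 by edgeR's quasi-likelihood test. Without that library the differences were 0.31 (adjusted p = 0.213) and 0.58 (adjusted p = 0.05973), and neither passed.

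The Rc3h1 call was lost as well without wild-type colon library 0, 1 or 2 (adjusted p = 0.07781, 0.09329 and 0.1128), and with the replicate number as a block (adjusted p = 0.0817). Over all alternatives its adjusted p ranged from 0.001833 to 0.2507, and that of Rc3h2 from 0.001135 to 0.06892. Among Il6ra-/- libraries Rc3h1 stood at 107 and 120 CPM before transfer and at 155, 154 and 146 CPM in the colon, a difference of 0.42 (SE 0.21, adjusted p = 0.1805). Rc3h2 stood at 97.4 and 121 CPM before transfer and at 181, 164 and 157 CPM in the colon, a difference of 0.62 (SE 0.23, adjusted p = 0.06546). The stages did not overlap for either gene there, although neither difference passed edgeR's quasi-likelihood test.

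All 3 Zfp36 genes rose in wild-type cells. Zfp36, on chr7:28376784-28380253 (minus strand), stood at 86.7 and 209 CPM before transfer and at 307, 461 and 456 CPM in the colon. The libraries from before transfer differed from each other by a larger ratio than the colon libraries did, and library 1 was the higher in both genotypes. Among Il6ra-/- libraries Zfp36 stood at 89.3 and 199 CPM before transfer and at 225.0, 471 and 410 CPM in the colon, with no overlap in either genotype. The rise in wild type was 2.76-fold (1.47, SE 0.47, adjusted p = 0.03496 by edgeR's quasi-likelihood test). It was lost without wild-type library 0 from before transfer (0.99, adjusted p = 0.1456), without colon library 1 (adjusted p = 0.083) and without colon library 2 (adjusted p = 0.08924), within a range of 0.0008593 to 0.1456. For Il6ra-/- the difference of 1.36 (SE 0.47) missed the threshold (adjusted p = 0.05283). With the replicate number as a block, which takes out the gap between experiments, it was 1.30 (SE 0.23) and passed (adjusted p = 0.00368); over all alternatives the adjusted p ranged from 0.001914 to 0.3169.

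Zfp36l1, on chr12:80107754-80113013 (minus strand), stood at 172 and 185 CPM in wild type before transfer and at 279, 321 and 344 CPM in the colon. It rose 1.76-fold (0.82, SE 0.22, adjusted p = 0.01845 by edgeR's quasi-likelihood test), a call lost without colon library 1 (adjusted p = 0.0531) or colon library 2 (adjusted p = 0.05527), within a range of 0.002672 to 0.08372. Its Il6ra-/- levels were 185 and 262 CPM before transfer and 207, 290.4 and 257 CPM in the colon. There the stages overlapped, and the difference was 0.17 (SE 0.22, adjusted p = 0.6221). The gap between the genotypes' stage effects was -0.65 log2 units with a 95% interval from -1.33 to 0.04. Of the exon bases of Zfp36l1, 55.9% are shared with Gm26669, a long non-coding RNA on the opposite strand; no source used here gives the strand setting of the counting, so Zfp36l1 counts are uncertain to that extent. Zfp36 and Zfp36l2 share 3.6% and 2.97% of their exon bases with antisense genes that were not among the counted IDs.

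Zfp36l2, on chr17:84183931-84187947 (minus strand), was the highest of the 3 paralogs per kilobase in the colon. It stood at 226 and 212 CPM in wild type before transfer and at 471, 763 and 816 CPM in the colon, with experiment 1 the lowest colon library. The rise was 3.12-fold (1.64, SE 0.37, adjusted p = 0.006886 by edgeR's quasi-likelihood test). It was 1.06 within experiment 1 and 1.90 within experiment 2, and it did not pass without the pair of libraries that stood apart (1.41, adjusted p = 0.08744, the highest of its alternatives, against a lowest of 5.155e-05). Il6ra-/- Zfp36l2 stood at 286 and 490 CPM before transfer and at 477, 897 and 912 CPM in the colon, so that library 1 from before transfer overlapped colon library 0. That difference of 0.97 (SE 0.35) had an adjusted p of 0.06525, with a range of 0.02413 to 0.3757.

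**Figure D2:**
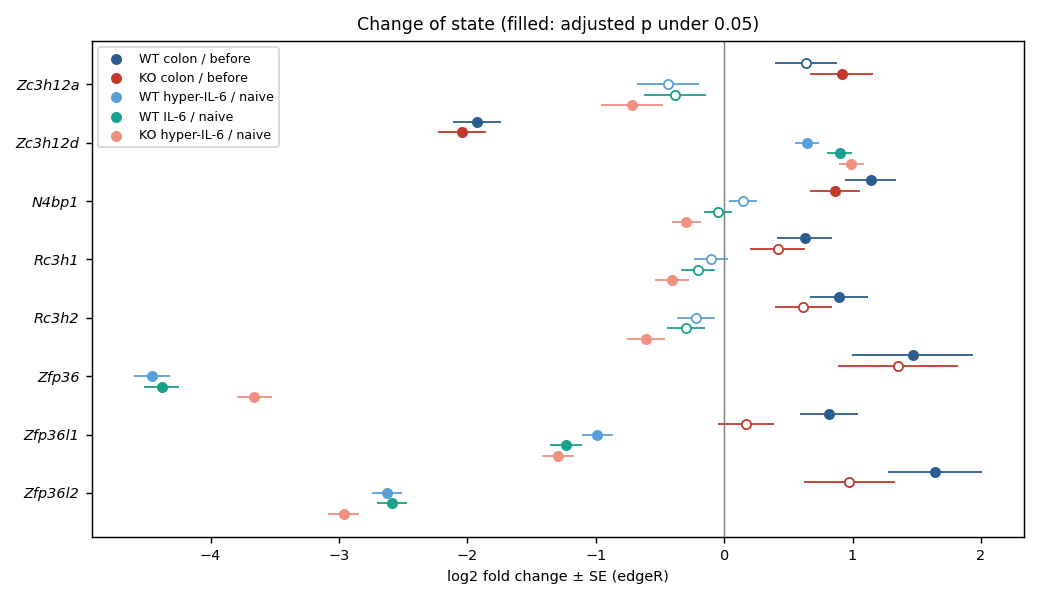
Log2 fold change with its SE (x axis) of each of the 8 members (y axis) between states: colon against before transfer in each genotype, and cultured against naive in 3 comparisons (WT, wild type; KO, Il6ra-/-); filled points had an adjusted p under 0.05. Zc3h12d lies below 0 in the colon comparisons (-1.92 and -2.04) and above 0 in the culture comparisons (0.65 to 0.99), opposite to the Zfp36 family.

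Markers of other cells and of activation differed between the same libraries. The 10 myeloid markers summed to 16.3 to 67.2 CPM before transfer and to 104 to 376 CPM in the colon, and the 9 epithelial markers to 33.8 to 116 and 175 to 675 CPM. The 6 CD4 T-cell markers summed to 3862 to 5861 CPM over all 10 transfer libraries. The 14 immediate-early genes, among them Fos, Jun and Egr1, summed to 1686 to 2096 CPM before transfer. In the colon they summed to 3597 to 7368 CPM. In wild type 5 of them rose there and 0 fell (17.1% and 15.8% of all genes did). In Il6ra-/- cells 7 rose and 1 fell (13.8% and 13.2% of all genes did). The colon libraries of experiment 1 held the lowest of the colon sums in each genotype (4491 CPM in wild type and 3597 in Il6ra-/-). They were also the lowest colon libraries for Zfp36 and Zfp36l2. Before transfer, the 6 naive T-cell markers summed to 1528 and 2979 CPM in Il6ra-/- libraries 0 and 1, and to 1308 and 3258 CPM in the wild-type ones. The 6 Th17 markers summed to 1198 and 617.5 CPM in those Il6ra-/- libraries and to 2283 and 686 CPM in the wild-type ones. The part of these signals in the members' changes was not tested. The colon cells were also sorted without the Thy1.1 gate that was used before transfer, so the stage cannot be told apart from the gate.

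The naive and cultured cells gave the widest change of any member. In wild type, 1 of 8 members rose after culture with hyper-IL-6 (36.8% of 14926 genes rose) and 3 fell (33.5% of genes fell). The 4 calls stand against 70.3% of all genes, and the median member difference was -0.33, beside 0.04 over all genes. The same 4 members passed after culture with IL-6 (70.6% of genes called), with 1 higher (37.0% of genes) and 3 lower (33.6% of genes). In Il6ra-/- cells all 8 passed (72.0% of genes called), with 1 higher (37.5%) and 7 lower (34.4%), and a median of -0.66. Both wild-type comparisons share their naive libraries, and the comparisons of genotypes use the same libraries as those of states. Here too, counts of calls are not a comparison of the genotypes. The difference between their culture effects passed edgeR's quasi-likelihood test for 0 of 8 members (0.0% of genes). With DESeq2 it passed for Zfp36 (0.241% of genes).

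Zfp36 stood at 693 and 564 CPM in wild-type naive libraries 1 and 2, at 32.0 and 28.2 CPM after IL-6 and at 29.8 and 27.5 CPM after hyper-IL-6. The Il6ra-/- levels were 389 and 452 CPM in naive libraries and 33.2 and 33.5 CPM after hyper-IL-6. The cultured groups lay close together, far below both naive groups. The fall was 21.9-fold in wild type with hyper-IL-6 (-4.46, SE 0.14, adjusted p = 1.069e-09), 20.8-fold with IL-6 (-4.38, SE 0.14, adjusted p = 1.2e-09) and 12.6-fold in Il6ra-/- (-3.66, SE 0.13, adjusted p = 2.499e-09), all by edgeR's quasi-likelihood test.

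Zfp36l2 stood at 1961 and 1618 CPM in wild-type and at 1941 and 2223 CPM in Il6ra-/- naive libraries, and between 258 and 310.0 CPM in the 6 cultured libraries. It fell 6.18-fold in wild type with hyper-IL-6 (-2.63, SE 0.12, adjusted p = 1.08e-08 by edgeR's quasi-likelihood test) and 7.80-fold in Il6ra-/- (-2.96, SE 0.12, adjusted p = 5.155e-09). Zfp36l1 fell less, from 605 to 699 CPM in the 4 naive libraries to 252 to 363 CPM in the 6 cultured ones. Its difference was -0.99 (SE 0.12, adjusted p = 2.884e-05) in wild type with hyper-IL-6, -1.23 (adjusted p = 5.102e-06) with IL-6 and -1.29 (adjusted p = 3.332e-06) in Il6ra-/-. The 3 genes fell in every one of these comparisons under every alternative tried.

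The family's make-up changed with it. Per kilobase, the 3 mRNAs summed to 823.5 to 989 CPM in naive, 167 to 210.3 in cultured, 147 to 284 in cells before transfer and 269 to 487 in colon libraries. Zfp36 gave 12.6% to 20.2% of that sum in naive and 4.08% to 5.78% in cultured libraries. Zfp36l1, the least changed, gave 21.5% to 25.8% in naive and 49.8% to 57.8% in cultured libraries, and so became the leading paralog there. In the colon Zfp36l2 led, with 42.3% to 55.9%, and Zfp36 gave 24.1% to 29.1%. Before transfer Zfp36l2 led as well, with 43.6% to 48.9%, except in wild-type library 1 (33.0%, against 34.0% for Zfp36l1). Zfp36 gave 15.3% to 20.2% in Il6ra-/- and 17.05% to 33.0% in wild-type libraries from before transfer.

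**Figure D3:**
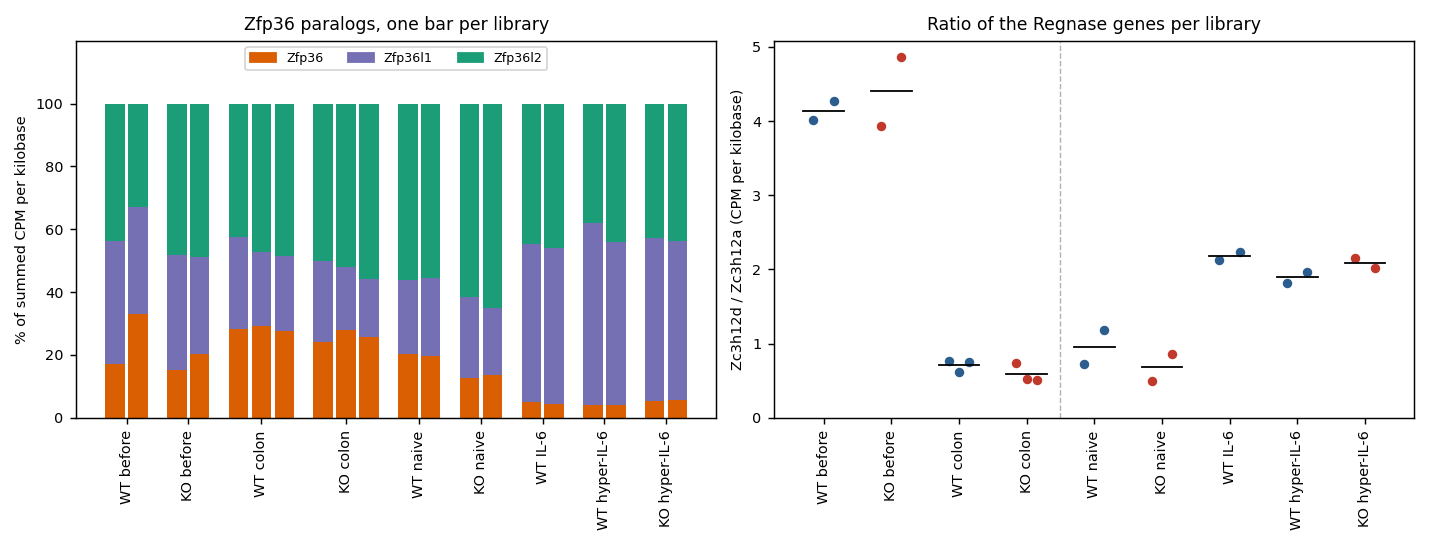
Left, share of Zfp36, Zfp36l1 and Zfp36l2 in their summed level per kilobase of exon (y axis, percent) in each library (x axis); right, ratio of Zc3h12d to Zc3h12a per kilobase in the same libraries, with a bar for the group mean (WT, wild type; KO, Il6ra-/-). Zfp36 falls to 4.08% to 5.78% of the family in the cultured libraries, and the Regnase ratio is 3.94 to 4.87 before transfer and under 1 in every colon library.

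Zc3h12d again went against the Zfp36 family. It stood at 92.1 and 86.4 CPM in wild-type naive libraries, at 158 and 175 CPM after IL-6 and at 133 and 147 CPM after hyper-IL-6. Il6ra-/- libraries held 76.6 and 84.5 CPM when naive and 161 and 159 CPM after culture. It rose 1.57-fold with hyper-IL-6 (0.65, SE 0.10, adjusted p = 0.0001214), 1.87-fold with IL-6 (0.90, SE 0.10, adjusted p = 8.865e-06) and 1.99-fold in Il6ra-/- (0.99, SE 0.10, adjusted p = 3.996e-06) by edgeR's quasi-likelihood test, under every alternative as well. Per kilobase it was 1.82 to 2.23 times as high as Zc3h12a in the cultured libraries and 0.494 to 1.18 times in the naive ones.

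The other 4 members moved little in wild type. With hyper-IL-6 their differences from naive cells were -0.44 for Zc3h12a, -0.10 for Rc3h1, -0.22 for Rc3h2 and 0.15 for N4bp1, and none passed edgeR's quasi-likelihood test. Zc3h12a stood at 89.1 and 51.4 CPM in the 2 wild-type naive libraries, a wide gap, against 51.3 and 52.4 CPM with hyper-IL-6. Without naive library 2 its difference was -0.77 and passed. Where a group of 2 libraries loses 1, the remaining library is assumed to vary as the other groups do.

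Those 4 genes all fell in Il6ra-/- cells: Rc3h2 by 0.61 on the log2 scale (adjusted p = 0.003141), Rc3h1 by 0.41 (adjusted p = 0.01716), Zc3h12a by 0.72 (adjusted p = 0.01925) and N4bp1 by 0.29 (adjusted p = 0.03502), by edgeR's quasi-likelihood test. Rc3h2 passed under every alternative. The other 3 calls were lost when single Il6ra-/- libraries were left out. For Zc3h12a the difference was -0.67 without cultured library 1 and -0.75 without cultured library 2, close to the full value, but -0.34 without naive library 1. For Rc3h1 it was -0.23 without cultured library 2 and -0.31 without naive library 2. For N4bp1 it was -0.15 without cultured library 2, -0.33 without naive library 1 and -0.24 without naive library 2. The cultured Il6ra-/- libraries 1 and 2 themselves differed, with Rc3h1 at 145.0 and 113 CPM and Rc3h2 at 106 and 79.5 CPM. The difference between the genotypes' culture effects was -0.39 for Rc3h2, -0.30 for Rc3h1, -0.28 for Zc3h12a and -0.44 for N4bp1. None of these passed edgeR's quasi-likelihood test (adjusted p = 0.5954, 0.6235, 0.8119 and 0.5627), so the falls were not shown to differ between genotypes.

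Naive and cultured libraries also differed in activation genes. Fos, an immediate-early gene, stood at 676 CPM (SD 252, n = 2) in wild-type naive and 3.39 CPM (SD 0.73, n = 2) in wild-type hyper-IL-6 libraries, while Il2, which T cells make on stimulation, stood at 0.311 and 562 CPM. The labels give the same PMA and ionomycin stimulation for both. Of the 14 immediate-early genes, 5 rose and 9 fell on hyper-IL-6 culture of wild-type cells (36.8% and 33.5% of all genes did). Their median was -1.24, beside 0.04 over all genes. The summed immediate-early level was 4328 to 8308 CPM in naive and 1443 to 1724 CPM in cultured libraries, and its part in the fall of Zfp36 was not tested. The plot of Zfp36 against that sum sets the values side by side. The 6 Th17 markers summed to 15.6 to 20.1 CPM in naive and 2515 to 4342 CPM in cultured libraries, and the B-cell markers to at most 18.7 CPM in any library.

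**Figure D4:**
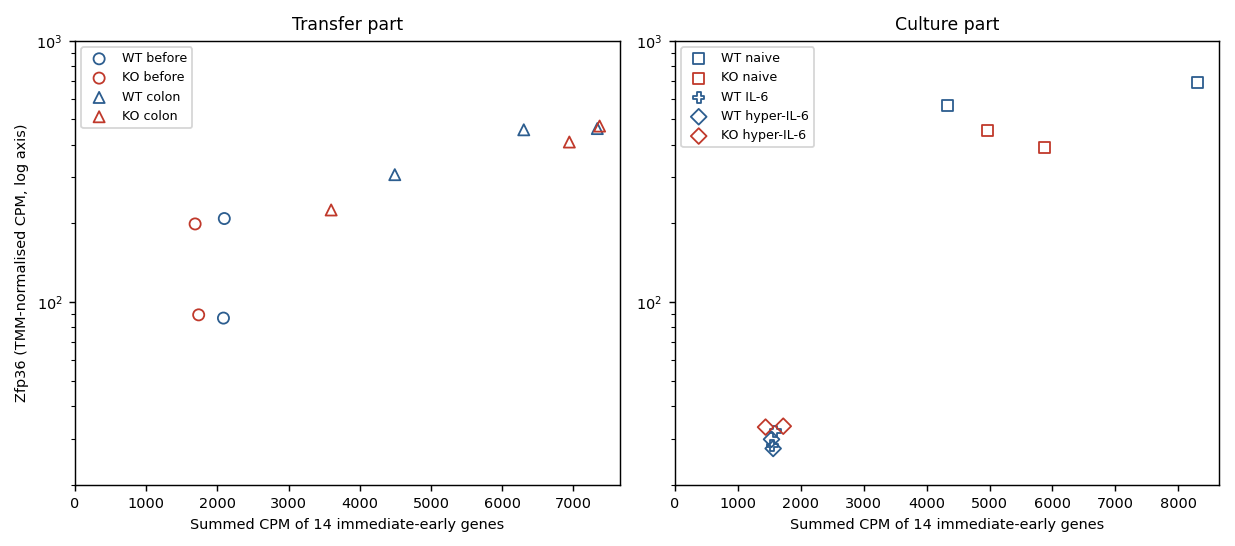
Zfp36 level (y axis, TMM CPM, log scale) against the summed level of 14 immediate-early genes (x axis, TMM CPM) with a point per library, transfer experiment on the left and culture experiment on the right. Cultured libraries lie together at 27.5 to 33.5 CPM of Zfp36, and naive libraries lie at 389 to 693 CPM over immediate-early sums of 4328 to 8308 CPM.

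Between genotypes, no member passed in any state. In the colon, where Il6ra-/- and wild-type cells had shared their hosts, 0 of 8 members passed edgeR's quasi-likelihood test (0.155% of genes did), 0 had an unadjusted p under 0.05, and 0 passed with DESeq2 (0.935% of genes did). Differences ran from -0.32 for Zfp36l1 (95% interval -0.76 to 0.11) to 0.16 for Zfp36l2 (-0.52 to 0.84). With the replicate number as a block 0 members passed as well (0.274% of genes did). Between same-numbered colon libraries 0, 1 and 2, which share an experiment, the difference kept 1 sign for Zfp36l1 (-0.43, -0.15 and -0.42), for Zc3h12d (-0.24, -0.06 and -0.20) and for Zfp36l2 (0.02, 0.23 and 0.16), and it changed sign for the other 5. Zfp36 had the widest interval, -1.03 to 0.73 around -0.15, wide enough to hold more than a 2-fold decrease. Zc3h12d was bounded between -0.54 and 0.21 and N4bp1 between -0.32 and 0.43. The 6 markers of CD8, NK and gamma-delta T cells that were counted summed to 194 to 271 CPM in the Il6ra-/- and 61.7 to 75.1 CPM in the wild-type colon libraries. The 6 Th17 markers summed to 648 to 699 CPM in the Il6ra-/- and 1054 to 1184 CPM in the wild-type colon libraries, although 0 of them passed. The part of these marker levels in the members' values was not tested. Rc3h1 lies 22.73 Mb from Ptprc, which encodes CD45 and differs in allele between the donors, so its genotype differences cannot be told apart from linked differences between the strains.

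Before transfer, 0 of 8 members passed edgeR's quasi-likelihood test (0.00703% of genes did), 0 had an unadjusted p under 0.05, and 0 passed with DESeq2 (0.183% of genes did). Zfp36l2 had the largest difference, 0.83 (95% interval -0.01 to 1.67, adjusted p = 0.982, range over the alternatives 0.2936 to 1.0). Its Il6ra-/- libraries, at 286 and 490 CPM, lay above the wild-type ones, at 226 and 212 CPM, but the gap was 0.34 in experiment 1 and 1.21 in experiment 2.

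After culture with hyper-IL-6, again 0 of 8 members passed (0.0% of genes did; with DESeq2 0 members and 0.0201% of genes did), and 2 had an unadjusted p under 0.05. These were Zfp36l1, at 284 and 252 CPM in Il6ra-/- against 363 and 295 CPM in wild type (-0.30, 95% interval -0.57 to -0.03), and N4bp1, at 71.6 and 59.2 against 78.0 and 79.3 CPM (-0.27, 95% interval -0.51 to -0.02). Hyper-IL-6 against IL-6 in wild type likewise gave 0 calls (0.0% of genes; with DESeq2 0 members and 0.0335% of genes), with 1 unadjusted p under 0.05. That was Zc3h12d, which was 0.25 log2 units lower with hyper-IL-6 (95% interval -0.46 to -0.04). The adjusted p of all 3 was 1 by edgeR's quasi-likelihood test.

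The naive cells gave the member closest to a call between genotypes. There 0 of 8 members passed edgeR's quasi-likelihood test (0.0067% of genes did), 1 had an unadjusted p under 0.05, and 1 passed with DESeq2 (0.636% of genes did), in each case Zfp36. Its levels in the Il6ra-/- libraries, 389 and 452 CPM, lay below both wild-type ones, 693 and 564 CPM. The difference was -0.58 (SE 0.12, 95% interval -0.84 to -0.31), with an adjusted p of 0.2024. The adjusted p was 0.0048 with DESeq2 and 0.0105 without wild-type naive library 2, a setting in which 902 genes (5.78% of those tested) passed in place of 1, and over all alternatives it ranged from 0.0001124 to 0.7557. The fitted fall on culture was 0.80 log2 units (SE 0.17) smaller in Il6ra-/- than in wild-type cells, a difference that did not pass edgeR's quasi-likelihood test either (adjusted p = 0.5147, range 0.0007254 to 0.9186). For that interaction 0 of 8 members passed (0.0% of genes did) and 3 had an unadjusted p under 0.05; with DESeq2 1 passed (0.241% of genes did). Without wild-type naive library 2 it was 0.94 (adjusted p = 0.02488), in a setting in which 2.51% of all genes passed in place of 0. The summed immediate-early level was 8308 and 4328 CPM in the wild-type and 5870 and 4967 CPM in the Il6ra-/- naive libraries, which overlapped.

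**Figure D5:**
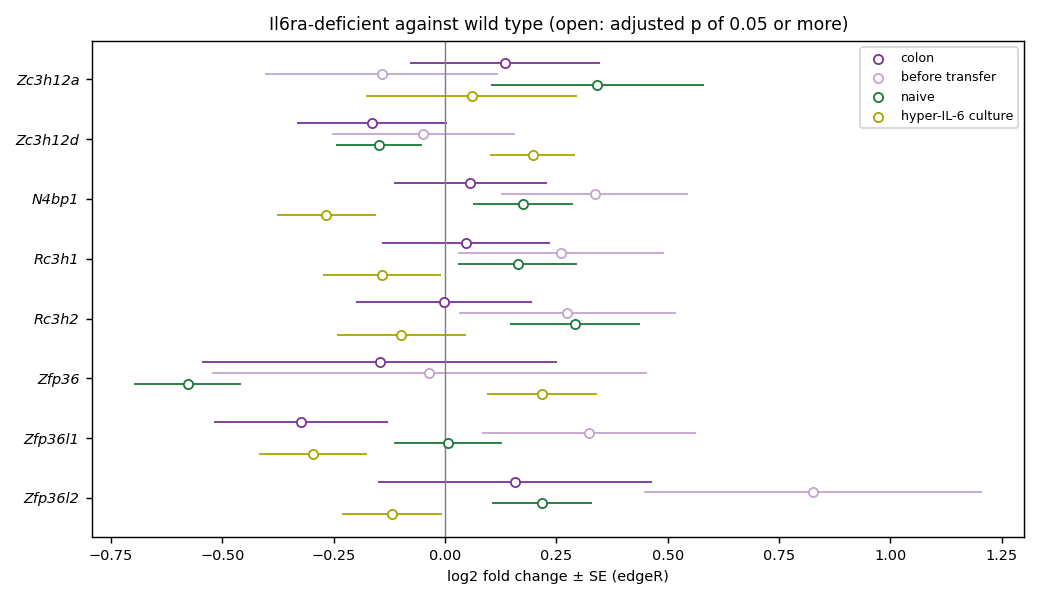
Log2 fold change with its SE (x axis) of Il6ra-/- against wild type for each of the 8 members (y axis) in 4 states: before transfer, colon, naive and hyper-IL-6 culture; all points are open, since none had an adjusted p under 0.05. The point for Zfp36 in naive cells (-0.58) and that for Zfp36l2 before transfer (0.83) lie farthest from 0.

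The members' partners in decay were described with lists chosen by role. Of 18 CCR4-NOT and PAN deadenylase genes, 4 rose and 0 fell in wild-type colon cells (17.1% and 15.8% of all genes did), with a median of 0.38 beside -0.02 over all genes. The share that rose was near that of all genes. The largest rises were in the BTG/TOB adaptors that bind the complex: Btg2 from 109 to 392.2 CPM (1.84, SE 0.34, adjusted p = 0.00276), Btg1 (1.05, adjusted p = 0.01579) and Tob1 (1.03, adjusted p = 0.03101), by edgeR's quasi-likelihood test. The same 3 genes rose in Il6ra-/- cells, where 3 rose and 0 fell (13.8% and 13.2% of all genes did). After hyper-IL-6 culture of wild-type cells 5 rose, among them Cnot9 (1.31), and 6 fell, led by Btg2 (-3.86), Tob1 (-2.84) and Btg1 (-2.14), where 36.8% of all genes rose and 33.5% fell. The direction of these 3 adaptors in both experiments was that of Zfp36.

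Of 16 decapping, exonuclease and helicase genes (median 0.38), 1 rose and 0 fell in wild-type colon cells (17.1% and 15.8% of all genes did). The gene that rose was the decapping cofactor Dcp1b (0.85, adjusted p = 0.01791 by edgeR's quasi-likelihood test). After hyper-IL-6 culture 8 of the 16 rose, led by the exosome nuclease Dis3 (1.62), and 4 fell, led by Dcp1b (-1.55). Of all genes 36.8% rose and 33.5% fell there. Of 11 other AU-rich element binding proteins tested, 1 rose in the colon, Celf2 (0.96, adjusted p = 0.005982 by edgeR's quasi-likelihood test). Culture raised 4 of them, led by Ybx1 (1.58), and lowered 3, led by Tia1 (-0.73), against the same shares of all genes.

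Some genes that act on the members' proteins moved strongly. Malt1, the protease that cleaves Regnase-1, stood at 1154 CPM (SD 796, n = 2) in wild-type cells before transfer and at 186 CPM (SD 35.0, n = 3) in the colon, a fall of 6.21-fold (-2.63, SE 0.36, adjusted p = 0.0004301 by edgeR's quasi-likelihood test). It fell 6.12-fold in Il6ra-/- cells. In culture it rose 4.17-fold over naive cells (790.2 against 189 CPM, 2.06, SE 0.09, adjusted p = 9.848e-09). In wild-type colon cells 3 of the 11 MALT1 and IKK genes rose and 2 fell (17.1% and 15.8% of all genes did). Their median was 0.03, beside -0.02 over all genes. On culture 2 rose and 5 fell (36.8% and 33.5% of all genes did), with a median of -0.19. Of the p38-MK2 genes, 1 of 8 rose in wild-type colon cells and 0 fell, against the same shares of all genes. It was Dusp1, a phosphatase that turns off p38 (33.2 to 401 CPM, 3.60, SE 0.49, adjusted p = 0.0004191 by edgeR's quasi-likelihood test). Dusp1 fell on culture (-3.58). On culture 5 of the 8 rose, among them the kinase genes Map2k3 (3.31) and Mapkapk2 (2.14), and 3 fell. The median of this list was 0.27 in wild-type colon cells, beside -0.02 over all genes, and 0.74 on culture, beside 0.04.

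Reported target mRNAs of the members went in both directions. Of 11 reported Regnase-1 and Roquin targets, 5 rose and 4 fell in wild-type colon cells (17.1% and 15.8% of all genes did), with a median of 0.97 beside -0.02 over all genes. Icos, a costimulatory receptor, went from 215 to 724 CPM (1.75, adjusted p = 0.001482) and Nfkbiz rose (1.51), while Il2ra (-3.07), Irf4 (-2.55) and Tnfrsf4 (-1.89) fell, by edgeR's quasi-likelihood test. Of 10 reported Zfp36 targets (median -0.44), against the same shares of all genes 5 rose, among them Ifng (6.90) and Csf2 (2.38), and 5 fell, among them Myc (-2.10) and Il17a (-2.53). On culture with hyper-IL-6, 8 of 10 Regnase-1 and Roquin targets tested rose (36.8% of all genes did), led by Il2, Il2ra (6.71) and Irf4 (6.50), and Nfkbiz fell (-2.81). Of the Zfp36 targets 9 of 10 rose on culture and Notch1 fell (-0.53), with medians of 2.55 and 5.54 for these lists beside 0.04 over all genes. Most of these genes respond to activation and to Th17 conditions in their own right, and total RNA counts do not separate synthesis from decay.

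Of the 4 other genes with the same kind of nuclease domain, Zc3h12c (Regnase-3) rose in the wild-type colon cells from 3.90 to 17.7 CPM (2.18, SE 0.77, adjusted p = 0.04982 by edgeR's quasi-likelihood test). Nynrin (-5.08) and Zc3h12b (-3.24) fell from low levels of 6.32 and 1.12 CPM. On culture Zc3h12c stood at 18.7 CPM against 0.0456 CPM in naive cells. No gene of these lists passed in a comparison of the genotypes.

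Over the 20 libraries, with each experiment centred on its own mean, the members fell into an order of likeness (Pearson r of log2 CPM, given as a description, since the libraries share groups and batches). Rc3h1 and Rc3h2 were the most alike pair (0.972), and the 3 Zfp36 genes had r of 0.939 to 0.957 with one another. Zc3h12d was negative with each of the other 7 (-0.86 to -0.636). Among 8340 other genes with a mean of at least 10 CPM in both experiments, Zfp36 was most like Tob1 (0.99), Gramd3 (0.988) and Pld3 (0.984), and Zc3h12d most like Bnip3 (0.986), Zfp629 (0.98) and Stk38l (0.98). Zfp36l2 was most like Sipa1l1 (0.983), Birc2 (0.982) and Il7r (0.978), and Zfp36l1 most like Map3k5 (0.963), Pan3 (0.962) and Birc2 (0.956). Rc3h1 followed Arfgef2 (0.98), Asxl2 (0.977) and Wnk1 (0.974), and Rc3h2 followed Zfp644 (0.967), Hipk1 (0.964) and Unkl (0.962). N4bp1 was most like Cflar (0.957), Prkx (0.954) and Camk1d (0.949), and Zc3h12a had the loosest likeness of all, with Mafk (0.936), Rhob (0.925) and Dnajb9 (0.92). Within the culture experiment alone, r with N4bp1 was 0.701 for Cflar, 0.464 for Prkx and 0.842 for Camk1d. Within the transfer experiment it was 0.974, 0.981 and 0.957.

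The order of levels between genes depends on length. By the union of exons, Rc3h1 stood at 1.37 to 2.51 times the level of Rc3h2 per kilobase in every library. By the longest transcript, Rc3h2 was higher in wild-type colon cells (18.7 against 13.3 CPM per kilobase, where the exon union gave 8.53 against 12.96), so the order of the Roquins is not settled by these counts. N4bp1 moved likewise, from 9.72 to 18.3 CPM per kilobase in the same cells.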

How the data were processed

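The measurements are RNA-seq counts from 20 libraries of CD4 T cells. For each library the authors deposited the raw number of reads assigned to every gene (unnormalised counts). The submitters' processing notes name HTSeq 0.7.2, STAR 2.5.3 and SAMtools 0.1.18, the build GRCm38, and R 3.4.3 with DESeq2 1.18.1. HTSeq counts unique alignments, so genes with near-identical copies can lose reads. Of the 50-base windows of Zfp36l1, 3.12% are shared with its pseudogene Zfp36l1-ps, whose counts were kept separate.

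Groups came from the sample labels. Each of the 2 experiments was fitted on its own, with all its groups, by edgeR 4.0.16 (R 4.3.3): TMM scaling, filterByExpr, a group term, the quasi-likelihood test and Benjamini-Hochberg adjustment over all genes tested, with a threshold of 0.05. Summary lines of the tables were left out. Intervals are at 95%. There were 12 comparisons (5 in the transfer and 7 in the culture experiment). The members and gene lists were chosen with earlier results of these data known. The text names the 8 members, and of each list up to 3 genes per direction with the largest change among those that passed and whose libraries did not overlap, or some of these. The 3 genes most like each member were ranked by Pearson r of log2 CPM with a prior count of 2.

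Gene positions and lengths came from GENCODE M21 (GRCm38). Alternatives were DESeq2 1.42.0, its size-factor scaling in edgeR, testing without a filter, a stricter one (10 counts in every library of a group and a mean of 5 CPM), the compared groups alone, the replicate number or the experiment as a term, each library left out, and another gene length. Where that leaves 1 library in a group, the spread comes from the other groups. Leaving out the pair of libraries that stood apart, and the compared groups with the block, were added after seeing the data.

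In the transfer experiment the labels tie replicate 0 to experiment 1 and replicates 1 and 2 to experiment 2. The deviations of same-numbered libraries correlated at 0.58, 0.237 and 0.183 between genotypes in the colon and at 0.43 before transfer. Different-numbered colon libraries of experiment 2 correlated at 0.205 and 0.279 between genotypes, so the numbers were not shown to pair libraries within that experiment. In the culture experiment the numbers were not shown to pair libraries (-0.164 to 0.156). Recovery was tried on counts simulated with each gene's mean and spread over all 10 transfer libraries, not those of the colon alone. For changes placed in the Il6ra-/- colon group, 28.0% of 2-fold and 91.0% of 4-fold changes were recovered (13878 genes). For hyper-IL-6 against IL-6, simulated likewise over all culture libraries, 87.0% and 100.0% were (14443 genes).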

Additional observations from a re-analysis of the deposited data

How the results depend on the processing

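Among 1152 values recomputed under the alternatives, no member call changed direction. The 40 values that took the other sign belong to 25 member tests with no call in either fit, and 38 of them come from leaving out libraries; Zfp36 between genotypes before transfer ran from -0.72 to 0.73. Of the 26 member calls 16 held in every alternative, as did 60 of the 70 tests that made no call. Zc3h12d was called in all 5 comparisons of states under each alternative tried. The count of members called between colon and cells before transfer in wild type, 7 (32.9% of all genes), became 3 without the pair of libraries that stood apart (21.3%) and 4 to 6 with each library left out in turn (22.6% to 41.7%). In Il6ra-/- cells the count of 3 (27.0%) became 5 without a filter on low counts (17.8%), 6 with DESeq2 (31.7%), 5 with the experiment as a term (29.2%), 6 without the pair of libraries (35.9%) and 1 to 5 with each left out (17.2% to 20.1%). With the replicate number as a block these counts were 6 and 4, and the block changed no other count of members. DESeq2 added Zc3h12a to the 7 wild-type colon calls and removed no call (38.5% of all genes). For naive cells, the count of 0 between genotypes became 1 without the filter (1.85% of all genes) and 1 with DESeq2 (0.636%). The genotype by culture count went from 0 to 1 in both of these settings (1.14% and 0.241% of all genes). Without wild-type naive library 2 the Zfp36 differences were -0.72 and 0.94 in these comparisons. Of the 8 members that changed on culture of Il6ra-/- cells (72.0% of all genes), N4bp1 lost its call without the filter (45.6%). Zc3h12a, Rc3h1 and N4bp1 lost theirs when single libraries were left out, which leaves 1 library in a group. Apart from those that left out a library, the cause of these shifts was not tested. Over all genes, the colon genotype count of 22 was 133 with DESeq2, 39 with the block, 120 without a filter and 0 to 8 with each library left out. The naive genotype count of 1 was 95 with DESeq2, 439 without a filter and 902 without wild-type naive library 2, which took the genotype by culture count from 0 to 2.51% of genes. Without wild-type library 0 from before transfer, the genotype count there went from 1 to 1152 and the genotype by stage count from 0 to 597, with 0 members among either. On counts simulated with the mean and spread of all transfer libraries, 28.0% of 2-fold genotype changes in the colon were recovered. Most such changes were missed there. Among the members, the 95% interval, which is not adjusted for the number of genes, held a 2-fold colon difference only for Zfp36 (-1.03 to 0.73).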
